A study of Mus musculus with 4 samples.

Results

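The interferon-stimulated genes are the genes that cells switch on when interferon binds its receptors, and they are described here by effector family in CD24+ mouse liver cells. The list named 56 genes and asked for 10 or more raw counts in at least 2 libraries. Of these, 54 met the rule, out of 21878 rows in the tables, and Mx1 and Mx2 were not analysed here. All 54 had 10 or more counts in each of the 4 libraries, with 58 as the lowest count, so none entered through 1 group alone. RNA was sequenced from C57BL/6 mouse liver cells sorted magnetically (MACS) by their CD24, a surface protein carried by progenitor-like liver cells among others. The labels name the cell type as hepatocytes. In the HACY group the agents were Y-27632, which inhibits ROCK kinases, A-83-01, which blocks TGF-beta receptor kinases, and CHIR99021, which inhibits glycogen synthase kinase 3. They were injected into the abdomen 3 times a week for 6 weeks. CCL4 mice received the liver toxin carbon tetrachloride, diluted in olive oil, at 2 ml/kg by the same route 2 times a week for 6 weeks. Mice were 8 weeks old when injected, and there were 2 libraries per group. No group was left untreated, and the labels do not make clear whether HACY mice were also given carbon tetrachloride, so higher and lower mean HACY relative to CCL4 and cannot be assigned to either treatment alone. The labels do not say whether replicates were separate or pooled animals, and p-values therefore cover no more than the spread between these libraries, which may be technical.

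Type I interferons signal through the receptor chains encoded by Ifnar1 and Ifnar2, and interferon gamma signals through those of Ifngr1 and Ifngr2. Janus kinases then phosphorylate STAT proteins. A complex that contains STAT2 and IRF9 binds the interferon-stimulated response element (ISRE) in target promoters, whereas the gamma-activated site (GAS) serves the response to interferon gamma. The induced proteins sense foreign RNA or DNA, block translation, degrade RNA, trap virus particles or break open the vacuoles of intracellular pathogens. Hepatocytes, macrophages and endothelial cells of the liver can all mount the response.

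Libraries held 18467299 to 19314219 counts. Hepatocyte markers were present, with 26174 and 33004 summed CPM (read counts scaled to library size, with edgeR's TMM factors) in HACY and 7906 and 6431 in CCL4. Most of each sum was Alb, with 24004.9 and 30357.5 CPM in HACY and 6970.9 and 5497.1 CPM in CCL4. Cps1, another of these markers, had 31.4 and 35.1 CPM in HACY and 7.03 and 10.99 CPM in CCL4. Cd24a, the gene of the sorted protein, had 21.9 and 19.4 CPM in HACY and 20.7 and 38.0 CPM in CCL4. CCL4 replicate 2 stood apart by its neutrophil markers, which summed to 352 CPM there, against 62.5 CPM in CCL4 replicate 1 and 56.4 to 59.3 CPM in the HACY libraries. In bulk RNA, a larger share of cells of 1 type cannot be told apart from more RNA per cell.

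At least 2 genes rose in HACY in each of the 9 effector families, and the receptors had the lowest family median. Of the 54 genes tested, 45 rose in HACY and none fell (edgeR quasi-likelihood test, adjusted p below 0.05 over all 13428 genes). Over all genes tested, 8.19% were called higher and 3.54% lower. At an unadjusted p below 0.05 edgeR gave 50 higher and 0 lower. DESeq2 called 47 of the 54 higher and none lower, with 10.1% of all genes higher and 5.47% lower. The median log2 fold change (HACY over CCL4) was 1.18 over the 54 genes and -0.01 over all genes tested, and 33 rose at least 2-fold, a level reached upwards by 5.18% of all genes. Both HACY libraries lay above both CCL4 libraries for 51 genes and below them for 1 gene, Ifi27, against 30.7% and 30.1% of all genes tested. The share of all raw counts that fell on the 54 genes averaged 0.890% over the HACY libraries and 0.436% over the CCL4 libraries. With libraries scaled by total count alone the median of all genes was -0.181 and that of the 54 genes 1.01. That scaling called 856 genes higher (6.37% of those tested) and 1355 lower (10.1%), against 1100 higher and 476 lower with TMM, and it called 44 of the 54 genes higher.

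**Figure D1:**
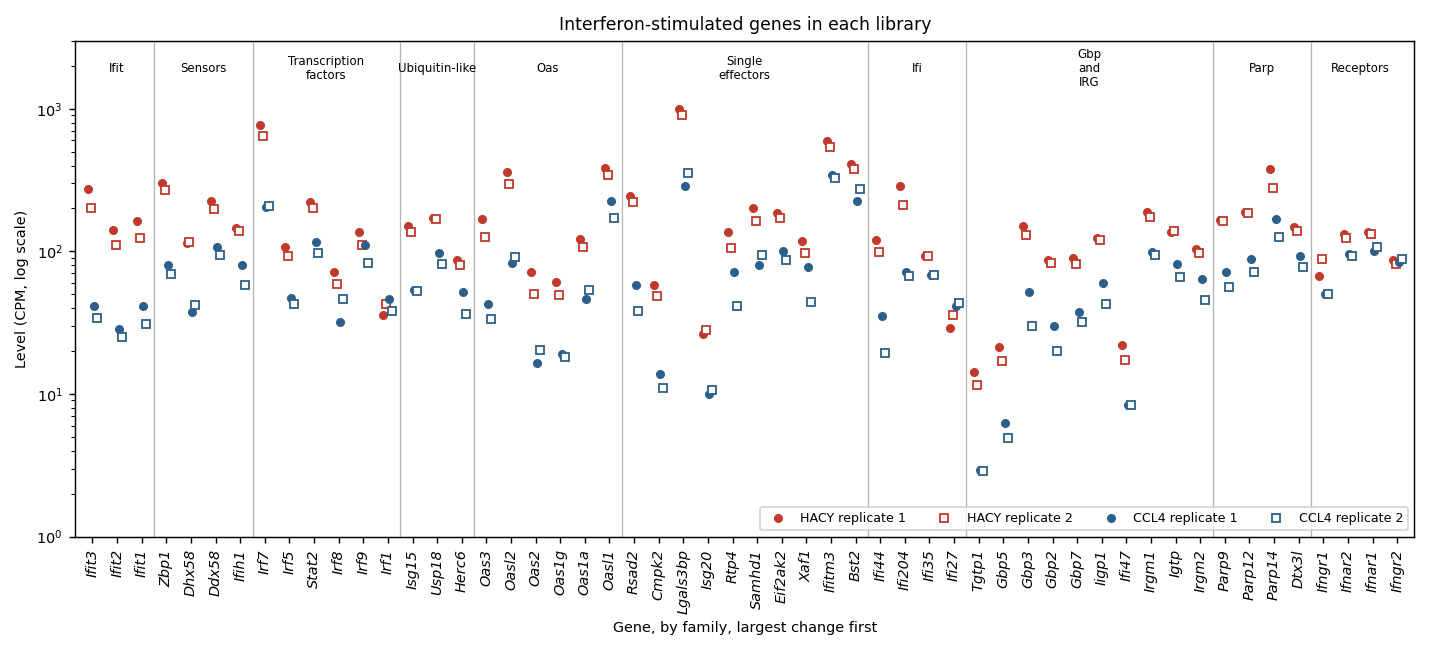
Level of each of the 54 genes in each library (CPM, log scale), with HACY in red and CCL4 in blue, filled circles for replicate 1 and open squares for replicate 2, grouped by family. Both HACY points stand above both CCL4 points for 51 genes; Irf1 and Ifngr2 overlap and Ifi27 is lower in HACY.

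The promoters of these genes were compared with the motifs that the pathway's factors are known to bind. RefSeq promoter windows (GRCm38.p6, 250 bases before to 50 bases after the annotated start, 300 in all) were matched by symbol for 44 of the 54 genes. The core of the response element was searched as GAAA, any 2 bases, then GAAA, and on the other strand as TTTC, any 2 bases, then TTTC. It occurred in the window of 21 of the 44 genes (47.7%), against 3.83% of the 10319 tested genes with a window and 3.99% of all 27025 genes in the table. Among the genes called higher it was present in 21 of 36, and among those not called in 0 of 8. Of these 8, 3 were receptor genes, and the list was made of known pathway genes, so the split is a description only. The core was also found in 13 of 30 further interferon-stimulated genes (43.3%) and in 55 of the 786 other genes called higher. In the Gbp and IRG GTPase family 8 of 9 genes held it, and in the Parp and Ifi families and the receptors none of 2, 2 and 4. Of the 21 matches closest to the start, 15 began within the 150 bases before it. The core of the gamma-activated site, TTCNNNGAA (N is any base), which reads the same on both strands, occurred in 17 of the 44 genes (38.6%), against 8.65% of tested genes with a window, and in 5 of the 8 genes not called. A match shows that the letters are there and does not show that a factor binds. The stretches below show the response element core in genes of each family that held it, on the strand of the gene, 5′ to 3′, with every base of a match in capitals.
Ifit3 (chr19:34583397-34583426, plus strand): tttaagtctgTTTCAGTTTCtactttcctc
Ifit1 (chr19:34640794-34640823, plus strand): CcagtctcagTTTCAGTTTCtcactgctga
Ifih1 (chr2:62646206-62646235, minus strand): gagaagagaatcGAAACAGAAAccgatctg
Ddx58 (chr4:40239804-40239833, minus strand): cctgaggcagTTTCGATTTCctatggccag
Stat2 (chr10:128270266-128270295, plus strand): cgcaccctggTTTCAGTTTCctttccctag
Isg15 (chr4:156200867-156200896, minus strand): GAAAAGGAAACCGAAACAGAAAatagctct
Oas3 (chr5:120777715-120777744, minus strand): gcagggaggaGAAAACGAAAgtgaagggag
Oas1a (chr5:120907520-120907549, minus strand): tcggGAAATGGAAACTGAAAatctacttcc
Oas1g (chr5:120887606-120887635, minus strand): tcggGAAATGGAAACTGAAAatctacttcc
Rsad2 (chr12:26456553-26456582, minus strand): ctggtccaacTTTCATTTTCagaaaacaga
Gbp2 (chr3:142620594-142620623, plus strand): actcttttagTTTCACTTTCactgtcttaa
Igtp (chr11:58199512-58199541, plus strand): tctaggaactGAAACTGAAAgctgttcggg
Irgm2 (chr11:58214903-58214932, plus strand): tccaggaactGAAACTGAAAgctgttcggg
Isg15 held 3 overlapping matches and Oas1a and Oas1g 2 each, which run together in capitals. The capital that opens the Ifit1 stretch is the last base of another match. The stretches of Oas1a and Oas1g were identical over 30 bases, and those of Igtp and Irgm2, neighbours on chromosome 11, differed at 1 of 30.

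Whole windows are shown for the gene with the largest change and for a receptor gene without a match, chosen after their values were seen. Capitals mark the response element core.
Ifit3 (chr19:34583279-34583578, plus strand): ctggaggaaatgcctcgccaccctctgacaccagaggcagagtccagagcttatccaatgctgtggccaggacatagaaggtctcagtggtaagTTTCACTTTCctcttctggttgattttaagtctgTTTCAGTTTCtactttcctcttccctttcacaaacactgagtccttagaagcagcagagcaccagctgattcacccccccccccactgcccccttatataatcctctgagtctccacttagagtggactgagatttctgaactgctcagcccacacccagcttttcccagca
Ifnar1 (chr16:91484965-91485264, plus strand): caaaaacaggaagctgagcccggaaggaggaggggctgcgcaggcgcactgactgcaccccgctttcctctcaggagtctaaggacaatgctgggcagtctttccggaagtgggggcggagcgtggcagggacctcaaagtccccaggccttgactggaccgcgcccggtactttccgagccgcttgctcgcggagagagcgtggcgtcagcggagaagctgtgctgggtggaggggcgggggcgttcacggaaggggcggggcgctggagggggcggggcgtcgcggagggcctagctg
The Ifit3 window held 2 matches, which began 156 and 122 bases before the start. The Ifnar1 window held none in either orientation and 1 gamma-activated site core.

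**Figure D2:**
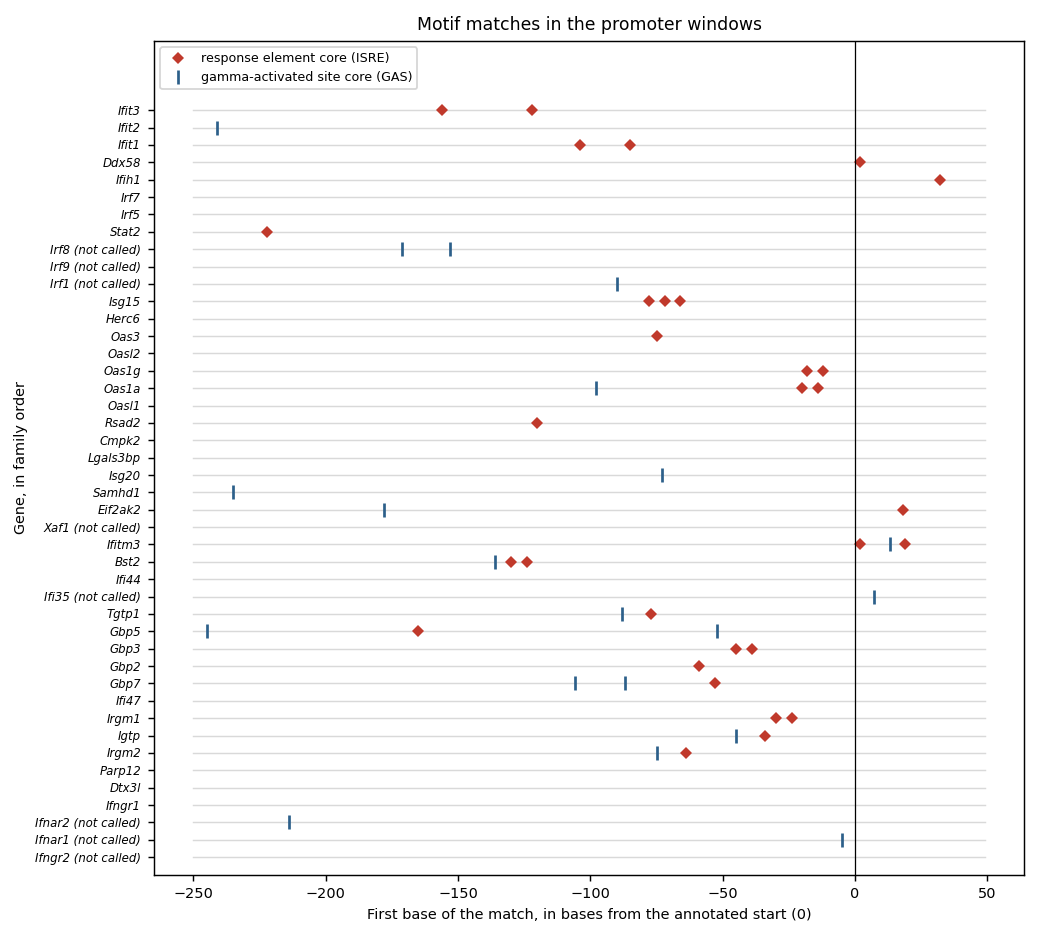
Position of each motif match in the promoter windows of 44 genes, in bases from the annotated start at 0, with red diamonds for the response element core and blue ticks for the gamma-activated site core. Diamonds stand in 21 genes, all of them called higher in HACY, and in none of the 8 genes marked as not called.

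Ifit proteins bind viral RNA that lacks a normal cap and block its translation, and their genes had the highest family median, a log2 fold change of 2.21. Ifit3 (chromosome 19, 34583531 to 34588731, GRCm38, plus strand) had 274 and 200 CPM in HACY and 41.5 and 33.9 CPM in CCL4. It rose 6.29-fold, the largest change among the 54 genes (log2 2.65, SE 0.19, edgeR adjusted p = 0.000992). Ifit2 had 140 and 110 CPM in HACY and 28.8 and 25.2 CPM in CCL4 (log2 2.21, SE 0.17, edgeR adjusted p = 0.00104). Ifit1, the cap-sensing member, had 162 and 123 CPM in HACY and 41.1 and 31.0 CPM in CCL4 (log2 1.98, SE 0.20, edgeR adjusted p = 0.00220). The lowest HACY library was at least 3 times the highest CCL4 library for each of these genes, and all 3 calls held without any single library. Ifit3 shared 51.2% of its 50-base words with transcripts of Ifit3b, so reads could be divided between them. Ifit3b had 80.3 and 56.7 CPM in HACY and 12.3 and 9.07 CPM in CCL4.

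All 4 nucleic acid sensors rose, with a median of 1.30. Zbp1, which binds left-handed nucleic acids and can start cell death, had 301 and 270 CPM in HACY and 80.2 and 69.5 CPM in CCL4. Its log2 fold change of 1.93 (SE 0.14) had the smallest edgeR adjusted p of the 54 genes, 0.000952. Dhx58, which encodes the regulator LGP2, had 114 and 116 CPM in HACY and 37.3 and 42.0 CPM in CCL4 (log2 1.53, SE 0.13). The viral RNA helicases changed less. Ddx58, the gene of RIG-I, had 225 and 198 CPM in HACY and 108 and 93.6 CPM in CCL4 (log2 1.07, SE 0.14). Ifih1, the gene of MDA5, had 145 and 138 CPM in HACY and 79.6 and 58.5 CPM in CCL4 (log2 1.04, SE 0.17). In each of the 4 genes the groups stood clear of each other, and edgeR's adjusted p was at most 0.0111.

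Among the 6 transcription factors 3 rose and 3 were not called. Irf7, which drives the interferon genes themselves in infected cells, had 765 and 647 CPM in HACY and 205 and 209 CPM in CCL4. It rose 3.41-fold (log2 1.77, SE 0.13, edgeR adjusted p = 0.00101). Irf5, a factor of inflammatory cytokine genes in myeloid cells, had 108 and 92.7 CPM in HACY and 47.1 and 42.6 CPM in CCL4 (log2 1.16, SE 0.14). Stat2 had 222 and 203 CPM in HACY and 117 and 97.0 CPM in CCL4 (log2 0.99, SE 0.14, edgeR adjusted p = 0.00653). Irf9, its partner in the response element complex, had 137 and 111 CPM in HACY and 110 and 82.7 CPM in CCL4, so the nearest libraries were almost level (log2 0.37, SE 0.18, edgeR adjusted p = 0.215). Irf8, a lineage factor of macrophages and dendritic cells, had 71.7 and 58.8 CPM in HACY and 32.0 and 46.2 CPM in CCL4 (log2 0.74, SE 0.21, edgeR adjusted p = 0.0621). Its call depended on CCL4 replicate 2, without which the value was 1.03 (edgeR adjusted p = 0.0113), and DESeq2 called it (adjusted p = 0.0130). Irf1, a factor of the interferon gamma response, had 35.8 and 42.9 CPM in HACY and 46.3 and 38.1 CPM in CCL4. Its groups overlapped (log2 -0.10, SE 0.17, edgeR adjusted p = 0.747), and the sign turned without HACY replicate 1 (0.02) or CCL4 replicate 1 (0.05).

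The 3 genes of the ubiquitin-like ISG15 pathway rose. Isg15, the modifier that is coupled to other proteins, had 152 and 136 CPM in HACY and 53.5 and 52.9 CPM in CCL4 (log2 1.43, SE 0.13, edgeR adjusted p = 0.00173). Usp18, which removes the modifier and dampens the type I receptor, had 173 and 169 CPM in HACY and 97.6 and 81.1 CPM in CCL4 (log2 0.93, SE 0.14). Herc6, the ligase that attaches ISG15 in mice, had 86.7 and 80.4 CPM in HACY and 51.5 and 36.5 CPM in CCL4 (log2 0.93, SE 0.18, edgeR adjusted p = 0.0226). The Herc6 call was lost without HACY replicate 1 (0.86, edgeR adjusted p = 0.0796). No library of one group reached the other in any of the 3 genes.

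Oligoadenylate synthetases make a messenger that activates the nuclease RNase L, and all 6 genes of the family rose, with a median of 1.65. Oasl2 (chromosome 5, 114896936 to 114912234) had 363 and 299 CPM in HACY and 82.5 and 91.8 CPM in CCL4 (log2 1.92, SE 0.15, edgeR adjusted p = 0.00104). Oas3 had 168 and 126 CPM in HACY and 42.6 and 33.5 CPM in CCL4 (log2 1.95, SE 0.19). Oas1g had 61.4 and 49.03 CPM in HACY and 19.1 and 18.2 CPM in CCL4 (log2 1.56, SE 0.18). Oas1a had 122 and 107 CPM in HACY and 46.4 and 53.9 CPM in CCL4 (log2 1.19, SE 0.14). Counts of the Oas1a and Oas1g pair are uncertain, since Oas1a shared 57.6% of its 50-base words with Oas1g. Oas2 had a value of 1.73. The smallest change was in Oasl1, which in mice restrains translation of Irf7 and had 387 and 341 CPM in HACY and 224 and 170 CPM in CCL4 (log2 0.88, SE 0.16, edgeR adjusted p = 0.0168). Without HACY replicate 1 the Oasl1 call was lost (0.78, edgeR adjusted p = 0.0563).

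Of 10 single effectors, 9 rose, with a median of 1.09. Rsad2, the gene of viperin, which makes a chain-ending nucleotide, had 245 and 223 CPM in HACY and 58.1 and 38.0 CPM in CCL4 (log2 2.28, SE 0.21, edgeR adjusted p = 0.00179). Cmpk2, a mitochondrial nucleotide kinase gene that lies beside Rsad2 on chromosome 12, had 58.0 and 48.98 CPM in HACY and 13.9 and 10.99 CPM in CCL4 (log2 2.10, SE 0.19). These neighbours therefore differed 4.87-fold and 4.30-fold between the groups. Lgals3bp, a secreted glycoprotein gene, had 1002 and 901 CPM in HACY and 289 and 357 CPM in CCL4 (log2 1.56, SE 0.15). Isg20, an exonuclease gene, had 26.5 and 28.0 CPM in HACY and 9.96 and 10.6 CPM in CCL4 (log2 1.40, SE 0.18). The other rises were Rtp4 (1.11), Samhd1, which hydrolyses deoxynucleotides (1.07), Eif2ak2, the gene of the kinase PKR (0.93), Ifitm3, which blocks virus entry (0.77), and Bst2, the gene of tetherin (0.66). Xaf1, an apoptosis regulator gene, had 118 and 97.4 CPM in HACY and 77.2 and 44.1 CPM in CCL4 (log2 0.83, SE 0.26, edgeR adjusted p = 0.0817). It was called without CCL4 replicate 1 (1.29, edgeR adjusted p = 0.00988), and with all libraries by DESeq2 (0.82, adjusted p = 0.00939) and by edgeR with a replicate block (0.88, adjusted p = 0.0271). Calls of Bst2 failed when HACY replicate 1 (edgeR adjusted p = 0.135), HACY replicate 2 (0.0624) or CCL4 replicate 1 (0.0525) was left out. Those of Rtp4 were lost without HACY replicate 1 or HACY replicate 2 (0.177 and 0.0561), and that of Ifitm3 without HACY replicate 1 (0.0587), as edgeR adjusted p. With all libraries the Rtp4 call failed without the count filter (0.0552) and by limma on FPKM (0.0685 and 0.0689).

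The Ifi genes share a name and not a function, and they divided. Ifi204, a DNA sensor gene of the HIN-200 family on chromosome 1, had 289 and 211 CPM in HACY and 71.8 and 66.7 CPM in CCL4 (log2 1.85, SE 0.17, edgeR adjusted p = 0.00188). It shared 20.02% of its 50-base words with other genes, chiefly Ifi211, so its count is uncertain. Ifi44 had 120 and 99.8 CPM in HACY and 35.1 and 19.3 CPM in CCL4 (log2 2.01, SE 0.27, edgeR adjusted p = 0.00640). Ifi35 had 92.7 and 92.2 CPM in HACY and 68.3 and 68.7 CPM in CCL4. That difference was far larger than the spread within either group but missed the threshold (log2 0.43, SE 0.12, edgeR adjusted p = 0.0614), which it passed without CCL4 replicate 2 (0.44, edgeR adjusted p = 0.0429). Exons of Gm11626 on the other strand cover 16.8% of the exonic bases of Ifi35. The strand setting of the counting is not given in the sources used here. Called genes had such overlaps too. Exons of Tnpo3 on the other strand cover 14.15% of Irf5. On the same strand, Gm45338 covers 13.89% of Rtp4, Gm45193 13.66% of Herc6 and Gm43802 11.35% of Gbp7. Igtp shared 11.77% of its 50-base words with Irgm2. Ifi27 alone had both HACY libraries below both CCL4 libraries, with 28.9 and 36.0 CPM in HACY and 41.6 and 43.2 CPM in CCL4 (log2 -0.39, SE 0.17, edgeR adjusted p = 0.173). On the deposited FPKM it was called lower (-0.52 on the log2(FPKM + 1) scale, limma adjusted p = 0.0403), where 5.32% of all genes were called lower and 5.56% higher.

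**Figure D3:**
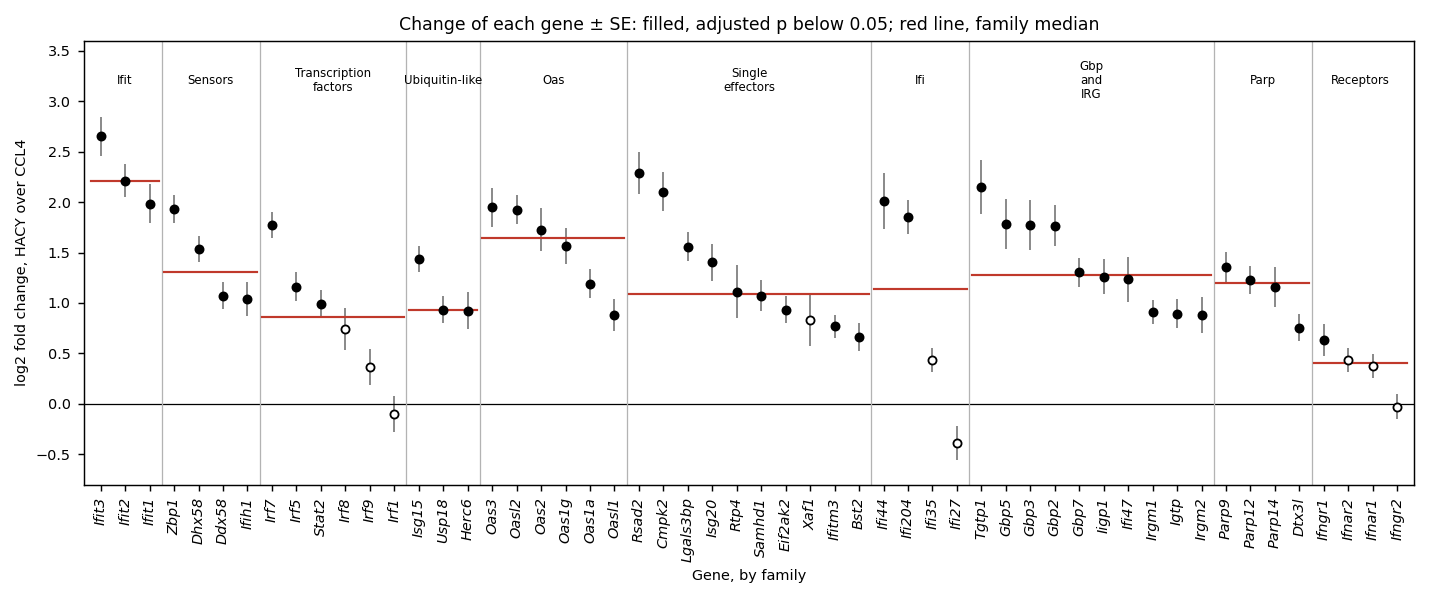
Log2 fold change, HACY over CCL4, of the 54 genes by family, with bars of 1 SE and a red line at each family median. Filled points passed edgeR's threshold; the Ifit median of 2.21 is the highest and the receptor median of 0.41 the lowest.

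Guanylate-binding proteins (Gbp) and immunity-related GTPases (IRG) coat and rupture the vacuoles of intracellular pathogens. All 10 genes rose, with a median of 1.28 and a range of 0.88 to 2.15. Gbp7 had 89.2 and 82.1 CPM in HACY and 37.3 and 32.0 CPM in CCL4 (log2 1.30, SE 0.15, edgeR adjusted p = 0.00322). Gbp2 had 87.5 and 82.3 CPM in HACY and 29.8 and 20.1 CPM in CCL4 (log2 1.77, SE 0.20). Gbp3 and Gbp5, which lie with them in a cluster on chromosome 3, had values of 1.77 and 1.78. The 3 regulatory IRG genes changed by similar amounts. Irgm1 (chromosome 11, 48861968 to 48871683) had 189 and 173 CPM in HACY and 98.7 and 93.9 CPM in CCL4 (log2 0.91, SE 0.12), and Igtp and Irgm2 had values of 0.89 and 0.88. Among the effector IRG genes, Tgtp1 had 14.3 and 11.5 CPM in HACY and 2.93 and 2.86 CPM in CCL4 (log2 2.15, SE 0.27, edgeR adjusted p = 0.00446). Its count is uncertain, since 79.4% of its 50-base words occur in Tgtp2. Iigp1 and Ifi47, which encodes another IRG protein, had values of 1.26 and 1.23. Every HACY library exceeded every CCL4 library in each of the 10 genes. The calls of Irgm2 and Ifi47 were lost without HACY replicate 1 (edgeR adjusted p = 0.0817 and 0.132).

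The 4 genes of the Parp family, which modify proteins with ADP-ribose, rose by 0.76 to 1.35. Parp9 had 165 and 163 CPM in HACY and 71.9 and 56.5 CPM in CCL4 (log2 1.35, SE 0.15, edgeR adjusted p = 0.00305). Dtx3l, the ubiquitin ligase that works in a complex with PARP9, had 149 and 139 CPM in HACY and 92.6 and 77.8 CPM in CCL4 (log2 0.76, SE 0.14, edgeR adjusted p = 0.0167). The genes lie head to head on chromosome 16, Parp9 on the plus strand and Dtx3l on the minus strand. Their starts overlap, on 9.40% of the exonic bases of Parp9 and 8.00% of those of Dtx3l. Parp12 had 190 and 186 CPM in HACY and 88.1 and 72.1 CPM in CCL4 (log2 1.23, SE 0.14). Parp14 had 378 and 279 CPM in HACY and 168 and 125 CPM in CCL4 (log2 1.16, SE 0.20). The groups stood apart in all 4, and only the Dtx3l call was lost when a library was left out (without HACY replicate 1, 0.70, edgeR adjusted p = 0.102).

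The receptor genes changed little, with a median of 0.41. Ifnar1, a chain of the type I receptor, had 137 and 133 CPM in HACY and 101 and 107 CPM in CCL4 (log2 0.38, SE 0.12, edgeR adjusted p = 0.0831). Ifnar2, the other chain, had 132 and 124 CPM in HACY and 95.9 and 93.1 CPM in CCL4 (log2 0.44, SE 0.12, edgeR adjusted p = 0.0576). Both were called without CCL4 replicate 2 (0.42 and 0.42, edgeR adjusted p = 0.0424 and 0.0477). Ifngr1, the ligand-binding chain for interferon gamma, had 67.6 and 88.0 CPM in HACY and 50.01 and 50.4 CPM in CCL4. It was the receptor gene that passed (log2 0.63, SE 0.16, edgeR adjusted p = 0.0478), and its call failed when any library was left out, with an edgeR adjusted p of 0.0625 (HACY replicate 1), 0.389 (HACY replicate 2), 0.0851 (CCL4 replicate 1) and 0.0517 (CCL4 replicate 2). Ifngr2 had 86.9 and 81.7 CPM in HACY and 84.0 and 87.7 CPM in CCL4. Its groups overlapped (log2 -0.03, SE 0.12, edgeR adjusted p = 0.912), and its sign turned without HACY replicate 2 (0.018) or CCL4 replicate 2 (0.0049).

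On a scale corrected for transcript length, the deposited FPKM, the most abundant of the 54 genes in HACY were Ifitm3, Bst2, Lgals3bp, Irf7 and Isg15. Ifitm3 had a level of 1092 ± 96.7 FPKM in HACY and 674 ± 37.0 FPKM in CCL4 (SD, n = 2 each). Bst2 had 490 ± 33.2 FPKM in HACY and 325 ± 37.1 FPKM in CCL4. The same 5 genes led in CCL4, with Isg15 above Irf7 there, 84.1 ± 1.97 and 72.9 ± 1.27 FPKM. None of these was among the 5 genes with the largest fold changes, which ranked from 11th to 54th in HACY and from 32nd to 54th in CCL4. Ifit3 was the 11th in HACY at 57.0 ± 13.5 FPKM and the 36th in CCL4 at 10.3 ± 1.12 FPKM. Tgtp1 was the lowest in both groups, at 3.52 ± 0.557 FPKM in HACY and 0.878 ± 0.0193 FPKM in CCL4.

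Other genes of the pathway were read from lists made of genes outside the 56. Of 38 further interferon-stimulated genes tested, 27 rose and none fell, with a median of 0.91. Among all genes tested 8.19% were called higher. Ifi205, a relative of Ifi204, had 68.2 and 58.2 CPM in HACY and 15.7 and 12.0 CPM in CCL4 (log2 2.19, SE 0.19, edgeR adjusted p = 0.00173). Ifit3b rose by 2.68, Mndal by 1.75 and Gbp9 by 1.497. Of 12 genes of receptor signalling and its feedback, 4 rose and none fell. Il10rb, a receptor chain for interferon lambda, rose by 0.79, Ptpn6, a phosphatase gene of blood cells, by 0.89, and the kinase gene Jak2 by 0.51. Without HACY replicate 1 these 3 calls were lost (edgeR adjusted p = 0.138, 0.135 and 0.309), and that of Jak2 was also lost without HACY replicate 2 (0.205). With all libraries the Jak2 call failed by upper-quartile scaling (adjusted p = 0.0533), library size alone (0.108), the replicate block (0.0576) and limma on FPKM (0.123 and 0.122).

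Of 15 genes upstream of interferon production 6 rose and none fell, with a median of 0.48, where 8.19% of all genes tested were called higher. The endosomal sensor genes Tlr3, Tlr7 and Tlr9 rose by 1.15, 1.37 and 1.76, and Tlr4 by 1.03. Tlr3 had 53.4 and 49.4 CPM in HACY and 24.7 and 21.6 CPM in CCL4. Without HACY replicate 1 there was 1 rise, that of Tlr3, and the calls of Tlr9, Tlr7 and Tlr4 were lost (edgeR adjusted p = 0.0780, 0.0797 and 0.124). That of Tlr4 also failed by limma on FPKM with all libraries (adjusted p = 0.0558 and 0.0551). Interferon RNA itself was close to undetected. The 13 listed ligand genes together had 2 and 2 counts in HACY and 8 and 4 counts in CCL4, and 9 of them, Ifng and 6 alpha genes included, had 0 counts in all 4 libraries. At these depths a zero allows as many as 3 counts, which is 0.155 to 0.162 CPM, counting error alone considered.

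Most of the 54 genes were higher in replicate 1 of each group, though within CCL4 the families were not uniform. HACY replicate 1 was above HACY replicate 2 in 48 of the 54 genes, with a median difference of 0.15 on the log2 scale, against 50.1% of all genes tested and a median of 0.00. CCL4 replicate 1 was above CCL4 replicate 2 in 39 of the 54, with a median difference of 0.21, against 49.5% of all genes. All 10 Gbp and IRG genes and all 4 Parp genes were higher in CCL4 replicate 1. Only 3 of 6 Oas, 2 of 4 Ifi and 1 of 4 receptor genes were. The differences between groups exceeded those between replicates. Summed over the 54 genes, the HACY libraries had 10039 and 8832 CPM and the CCL4 libraries 4284 and 3923 CPM.

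Macrophage markers moved with the interferon-stimulated genes between the groups. Of 14 markers tested 11 rose and none fell, against 8.19% called higher and 3.54% lower over all genes tested. All 14 had both HACY libraries above both CCL4 libraries, against 30.7% of all genes tested. Their sum was 3721 and 2717 CPM in HACY and 1096 and 1630 CPM in CCL4, and none was at 0 in all libraries. Adgre1, which encodes the macrophage antigen F4/80, had 131 and 93.5 CPM in HACY and 19.0 and 22.7 CPM in CCL4. Within HACY, replicate 1 was higher in the macrophage sum, in 13 of the 14 markers and in the sum of the 54 genes. Within CCL4 the markers were divided. The sum and 9 markers were higher in replicate 2, with Lyz2, a lysozyme gene that neutrophils also express, at 170.1 CPM in replicate 1 and 444 CPM in replicate 2. With Lyz2 left out the CCL4 sum kept that order, with 925.5 CPM in replicate 1 and 1186.5 CPM in replicate 2. The other 5, Cd14, Marco and the Kupffer cell markers Clec4f, Timd4 and Vsig4, were higher in replicate 1, as was the sum of the 54 genes. Vsig4, for example, had 27.3 CPM in replicate 1 and 11.6 CPM in replicate 2. Mrc1, one of the 9 markers higher in CCL4 replicate 2, had 67.6 CPM in replicate 1 and 134.7 CPM in replicate 2. Without HACY replicate 1 there were 7 rises among the markers. Summed markers of conventional dendritic cells were 33.0 and 29.96 CPM in HACY and 11.8 and 17.4 CPM in CCL4, and those of endothelial cells 1543 and 1146 CPM in HACY and 504 and 841 CPM in CCL4. Summed markers of plasmacytoid dendritic cells were 125 and 101 CPM in HACY and 68.0 and 82.5 CPM in CCL4. Most of that sum was Tcf4, which many other cells express, with 96.0 and 82.5 CPM in HACY and 61.6 and 76.5 CPM in CCL4 (edgeR adjusted p = 0.164). Cd209a, a dendritic cell marker, was at 0 in all 4 libraries. Siglech, a defining plasmacytoid marker, had 3.39 and 0.624 CPM in HACY and 0.303 and 0.197 CPM in CCL4. All 5 plasmacytoid markers tested had both HACY libraries above both CCL4 libraries, and 2 were called higher. However, Siglech, Cox6a2 and Klk1 reached 10 counts in the HACY libraries only. They passed the count filter through HACY, so their order between the groups was largely set by the filter. Klk1 had 11 and 21 counts in HACY. Ly6d had 22.0 and 15.2 CPM in HACY and 5.81 and 4.78 CPM in CCL4 (edgeR adjusted p = 0.00877). Klk1 had 0.601 and 1.19 CPM in HACY and 0 in each CCL4 library (edgeR adjusted p = 0.0247). Summed B cell markers overlapped, with 29.3 and 24.1 CPM in HACY and 26.1 and 26.3 CPM in CCL4. Markers of T and NK cells summed to 2.57 and 2.95 CPM in HACY and 0.708 and 0.838 CPM in CCL4, and 7 of the 8 were under the count filter. Hepatocyte markers rose as well, 7 of 8. Of 7 endothelial markers 3 rose and 1 fell, Clec4g (log2 -1.87, edgeR adjusted p = 0.0495). In 6 of them both HACY libraries lay above both CCL4 libraries. Markers of several cell types were therefore higher in HACY beside the interferon-stimulated genes. Biliary markers summed to 2918 and 4208 CPM in HACY and 1133 and 2177 CPM in CCL4, mostly Spp1, and 1 of 6 rose. Neutrophil markers were not higher. Of 8 tested none rose and 2 fell, Mmp9 and Cxcr2, both with their highest level in CCL4 replicate 2. Mmp9 had 8.57 and 9.02 CPM in HACY and 18.5 and 89.5 CPM in CCL4. Cxcr2 had 0.819 and 0.738 CPM in HACY and 2.78 and 13.06 CPM in CCL4. Of 7 stellate cell and fibroblast markers tested none was called. The part of these cell types in the result was not tested.

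**Figure D4:**
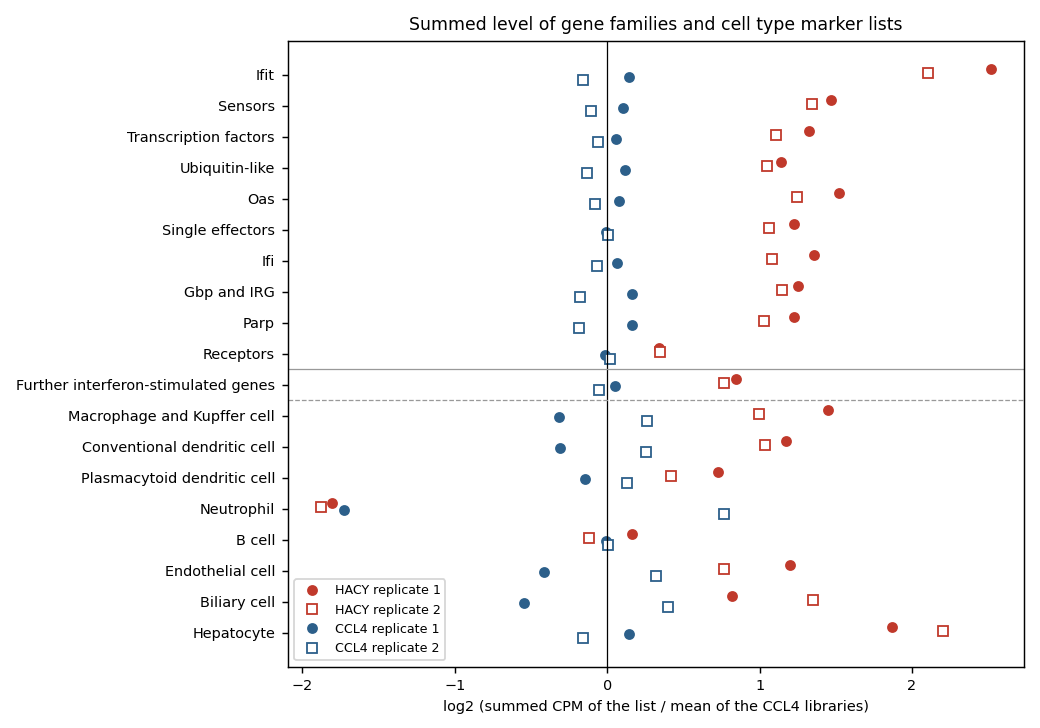
Summed CPM of each family (above the solid line), of further interferon-stimulated genes and of cell type marker lists (below the dashed line) in each library, as the log2 ratio to the mean of the CCL4 libraries. HACY libraries are red, CCL4 libraries blue; the macrophage sum is higher in CCL4 replicate 2 than in CCL4 replicate 1, as 9 of its 14 markers are, and most family sums are the reverse.

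Most calls did not rest on 1 library. The number of the 54 genes called higher was 36 when HACY replicate 1 was left out (3.85% of all genes higher) and 42 when HACY replicate 2 was (4.86%). It was 44 when CCL4 replicate 1 was left out (6.47%) and 48 when CCL4 replicate 2 was (13.4%). The same 36 genes were called higher in each of these fits and in all 10 other settings tried. They include all 3 Ifit genes, all 4 sensors, 5 of the 6 Oas genes, 8 of the 10 Gbp and IRG genes, Irf7, Irf5 and Stat2, and no receptor gene.

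**Figure D5:**
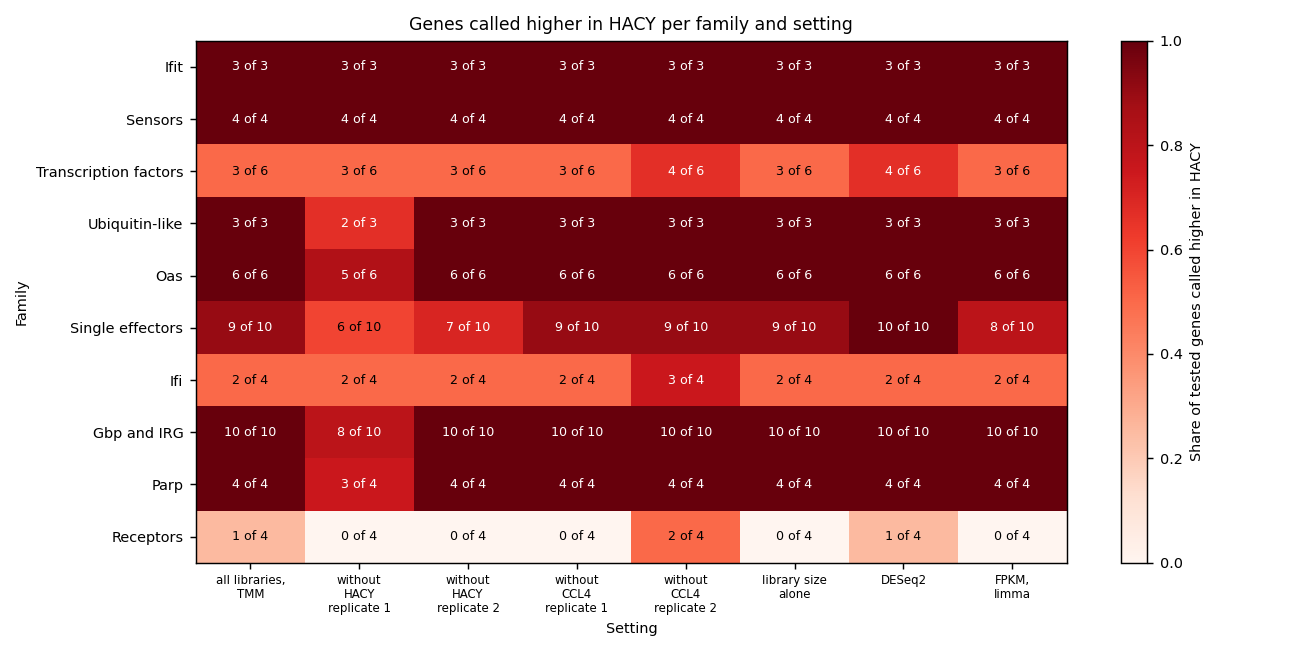
Number of genes called higher in HACY of those tested, per family (rows) and setting (columns), shaded by their share. The Ifit genes and sensors are all called in every column, and the receptors reach at most 2 of 4, without CCL4 replicate 2.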

How the data were processed

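Total RNA of sorted cells was made into stranded paired-end mRNA libraries, per the labels' protocols, and groups came from sample titles. For each library the authors deposited 1 table with raw read counts and FPKM values per gene, per the file headers. Trimmomatic, HISAT2, Cufflinks, HTSeq, DESeq and the build mm10 are named, per the submitters' processing notes; their roles, the annotation and the strand setting are not stated in the sources.

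The test used edgeR 4.0.16 (R 4.3.3) on the raw counts: filterByExpr (minimum count 10), TMM scaling, robust quasi-likelihood fit, treatment as the term, two-sided, Benjamini-Hochberg adjustment over 13428 genes, threshold 0.05. The SE was approximated from the F statistic, as the ratio of the log2 fold change to its square root. Alternatives were other scalings, filters and a replicate block, DESeq2 1.42.0, limma 3.58.1 (voom, and log2(FPKM + 1) or log2(FPKM + 0.1) at a mean FPKM of at least 0.5), and each library left out. Counts for genes outside the list were rerun under them after seeing the data. Replicates of a group differed beyond sampling noise (chi-square per degree of freedom 19.8 in HACY, 35.6 in CCL4).

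The genes, families and other lists were chosen with earlier results of these data known, and list counts are descriptions. Values per library are given for up to 4 genes per family with the smallest p, for all genes not called and for all receptors; of other pathway lists up to 4 called genes are named, and further ones were chosen after their values were seen. Locations are from GENCODE M21 (GRCm38, the assembly of mm10), where exon overlaps and shared 50-base words of transcripts were also computed. Promoters are from RefSeq. The values of 1 gene of the signalling list are not reported here.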

Additional observations from a re-analysis of the deposited data

How the results depend on the processing

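Under the 10 alternative settings with all libraries, 43 to 47 of the 54 genes were called higher, and 5.48% to 10.1% of all genes. None was called lower, except that limma on FPKM, with either pseudocount, called 1 lower, the Ifi gene Ifi27. For the receptors the 1 rise became 0 with upper-quartile scaling, library size alone, limma-voom, the replicate block and both FPKM fits. Replicate numbers pair nothing in the labels, and deviations of HACY 1 and CCL4 1 from their group means correlated at -0.10. The replicate block called 45 of the 54 genes, 44 of them in common. Over all genes, 1355 were lower by library size and 733 by DESeq2, and 662 and 652 were higher on FPKM with pseudocounts of 1 and 0.1. In the list upstream of interferon 3 rose on FPKM with either. With each library left out, 36 to 48 of the 54 genes rose, all genes gave 530 to 1840 higher and 99 to 1207 lower, and the receptors 0 to 2 higher. The signalling list gave 1 to 5 higher and 0 to 1 lower, the upstream list 1 to 6 higher and 0 to 2 lower, and macrophage markers 7 to 14 higher. Irf1 ranged from -0.237 to 0.0491, above 0 also at 0.0196, and Ifngr2 from -0.0782 to 0.0183, above 0 also at 0.00494. The cause of these changes was not tested. With 2 libraries a group, exact permutation of a single value cannot go below p = 0.333.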
